A study of Mus musculus with 16 samples.

Results

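The comparison set the 6 mammary tumors of mice that received both a TGF beta inhibitor and radiation against the 6 tumors of mice that received one of these agents, across all genes, and so covered 12 of the 16 libraries of the study. The combined tumors were 3 given the inhibitor and radiation (TGFbi+RT) and 3 given both plus an antibody to PD-L1 (TGFbi+RT+anti-PD-L1). The single-agent tumors were 3 given the inhibitor (TGFbi) and 3 given radiation (RT). The inhibitor was IPW-5371, a small molecule given daily at 20 mg/kg, radiation was one focal dose of 10 Gy, and anti-PD-L1 was given weekly at 10 mg/kg. The single-agent inhibitor group carries the treatment label of control plus inhibitor, and the labels do not say for the other 3 groups whether control antibody was given. All 12 tumors were Trp53 null and grew in female BALB/cJ mice aged 8 to 10 weeks. They came from one tumor family, named F, labelled F2 and carried as tumor-derived transplants (mTDT), so that the tumors are related and no other family was compared. Mice entered treatment at a tumor volume of 65 to 100 mm3, and the tumors were frozen on day 7. Tumors are numbered within a group with no mouse named for each, so p-values measure the spread between these tumors.

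As background, TGF beta is a secreted factor that restrains lymphocytes, drives fibroblasts to make matrix and takes part in the response to DNA damage, and radiation both damages DNA and frees TGF beta from its latent form. Damaged DNA that reaches the cytosol can set off type I interferon, which induces a wide set of antiviral genes. Interferon gamma, made by T and natural killer cells, induces MHC molecules, GTPases that defend the cell interior, the chemokines CXCL9 and CXCL10, and PD-L1, a ligand that inhibits T cells. In bulk tumor RNA fewer cells of a type and less RNA per cell cannot be told apart.

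Library totals were 11588238 to 14424306 counts in combined tumors and 11002869 to 15503134 in single-agent tumors, and 18902 to 19896 genes were detected in combined tumors against 18439 to 19253 in single-agent tumors. Levels are given as CPM (counts scaled to a common library size), adjusted with TMM factors, and fold changes are log2, combined over single agent, ± standard error. A pair of combined tumors stood apart: on the first principal component, which held 46.5% of the variance, TGFbi+RT replicate 3 lay at 92.05 and TGFbi+RT+anti-PD-L1 replicate 2 at 104.33, while the other 10 tumors lay between -72.2 and 18.8. Results are therefore also given without those 2 tumors, an omission chosen after the data were seen. Most library names carry a code whose meaning the labels do not give. Code A2301 held all TGFbi and TGFbi+RT tumors and TGFbi+RT+anti-PD-L1 replicate 1, and code A2304 held all RT tumors and TGFbi+RT+anti-PD-L1 replicates 2 and 3, so within A2301 4 combined tumors face 3 TGFbi tumors and within A2304 2 face 3 RT tumors. The count columns of the resubmitted libraries, TGFbi+RT replicate 3 and TGFbi replicate 3, show no code, and both were placed under A2301 here. As placed, each code held 1 of the 2 tumors that stood apart. Each fit within a code filtered the genes anew. The epithelial marker Epcam was at 112 to 183 CPM (median 121) in combined tumors and 130.5 to 205 CPM (median 149.8) in single-agent tumors, and the basal keratin Krt5 at 351 to 759.9 CPM (median 403) in combined tumors and 355 to 1144 CPM (median 522) in single-agent tumors. Trp53 transcripts were at 64.3 to 109 CPM (median 78.6) in combined tumors and 73.7 to 94.9 CPM (median 80.6) in single-agent tumors; the deleted part was not looked at separately. The other keratins that mark mammary epithelium, Krt8, Krt18 and Krt14, were detected in every tumor as well, Krt8 at as little as 0.928 CPM in TGFbi+RT+anti-PD-L1 replicate 3.

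No gene passed the adjusted threshold by edgeR, and among genes at an unadjusted p under 0.05 more lay higher than lower in combined tumors. Of 15894 genes tested with edgeR's quasi-likelihood test, 0 (0%) passed at an adjusted p of 0.05, and the smallest adjusted p was 0.313. At an unadjusted p under 0.05 there were 1409 genes with a higher level in combined tumors (8.86%) and 634 with a lower level (3.99%), 2043 in all, where 795 would be expected by chance. That excess rested on the pair of tumors that stood apart, since without them 770 of 15912 genes reached that p. DESeq2 called 300 genes higher (1.89%) and 22 lower (0.138%), and limma-voom called 0. DESeq2 gave no adjusted p for 77 genes, which its counts therefore could not include. Among them were Cxcl9, Cxcl10, Gbp6, Iigp1, Tgtp2, Ncr1, Klrk1, Cd274 and H2-DMb1. The median log2 fold change over all genes was -0.0011, with 49.8% of genes above zero. In 56 genes (0.352%) all 6 combined tumors lay above all 6 single-agent tumors, and in 34 genes (0.214%) all 6 lay below. The 56 higher genes had fitted log2 fold changes of 0.557 to 7.24 with a median of 2.85, and 48 of them reached 1. Leaving out 1 tumor at a time gave 98 to 370 non-overlapping genes in place of 90, since fewer tumors have to separate. The most came without RT replicate 1. On the first principal component that tumor lay at 18.79, above every other single-agent tumor and every combined tumor but the pair that stood apart. All 34 lower genes stayed under 1 in size, with a median of -0.34 and a range of -0.90 to -0.19. Of the 56 higher genes 16 belonged to one of the 37 gene lists described here, most to interferon, MHC class II and cytotoxic lists. Of the 34 lower genes 0 did. The lists hold only 783 entries, some genes more than once, beside 15894 genes tested. Few of 34 genes would thus be members in any case, and the 0 is not read as a result.

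**Figure D1:**
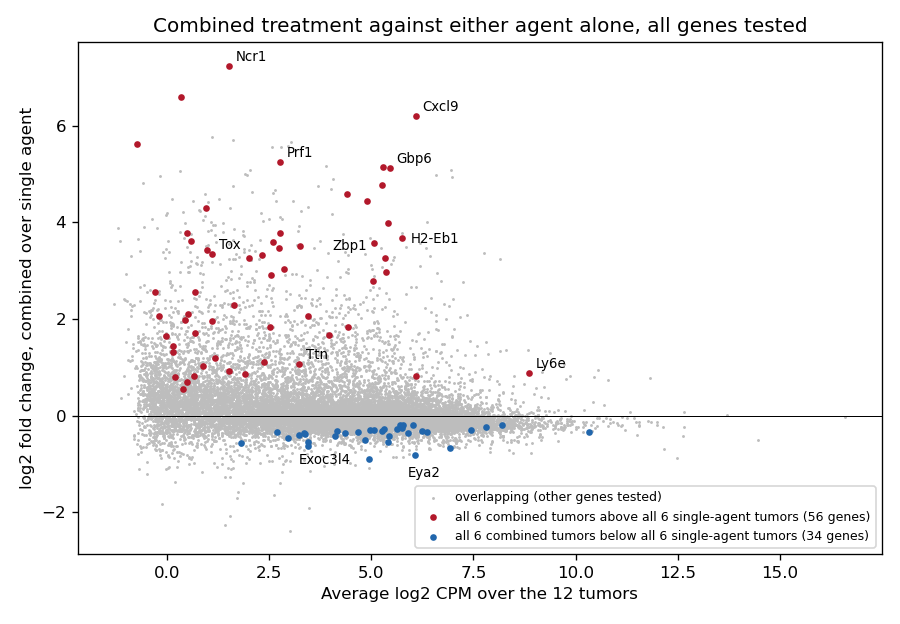
Each point is 1 of the 15894 genes tested, with its average log2 CPM over the 12 tumors on the x axis and the log2 fold change of combined over single-agent tumors on the y axis. Red points are the 56 genes in which all 6 combined tumors lay above all 6 single-agent tumors, blue points the 34 genes in which all 6 lay below, and grey points all other genes; the red points reach 7.24 and the blue points -0.90.

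Several of the higher genes carry an interferon motif near their start. All 5 windows shown here hold that motif, so they do not stand for the higher genes as a whole. Other higher genes, such as Cxcl9, Ncr1 and Prf1, held neither motif searched for. The windows are RefSeq sequence of GRCm38.p6, 250 bases before to 50 after the annotated start, 5′ to 3′ on the gene's strand. Capitals mark matches to the interferon-stimulated response element (GAAA, any 2 bases, then GAAA, on either strand), which binds the transcription factors downstream of type I interferon, or to the gamma-activated site (TTCNNNGAA, its own reverse complement), which binds STAT proteins. Of the 56 higher genes 39 had a window, and 10 of these (25.6%) held the first motif, against 460 of 11885 tested genes with a window (3.87%), 3.44% of all 32851 windows and 0 of 28 lower genes. The gamma-activated site was in 5 of 39 higher genes (12.8%), 4 of 28 lower genes (14.3%) and 8.2% of tested genes. The 5 windows below belong to Cxcl10 (chr5:92348840-92349139, minus strand), Gbp5 (chr3:142496684-142496983, plus), Tgtp2 (chr11:49064163-49064462, minus), Irgm2 (chr11:58214727-58215026, plus) and Ifi205 (chr1:174031706-174032005, minus). No marked match overlapped another. A match is a description of letters and not a bound site.
Cxcl10: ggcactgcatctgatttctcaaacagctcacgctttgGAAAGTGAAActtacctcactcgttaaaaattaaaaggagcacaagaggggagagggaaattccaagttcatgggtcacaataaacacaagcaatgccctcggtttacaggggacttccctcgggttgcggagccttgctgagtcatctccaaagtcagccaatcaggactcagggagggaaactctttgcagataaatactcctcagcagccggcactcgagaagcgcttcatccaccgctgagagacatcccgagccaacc
Gbp5: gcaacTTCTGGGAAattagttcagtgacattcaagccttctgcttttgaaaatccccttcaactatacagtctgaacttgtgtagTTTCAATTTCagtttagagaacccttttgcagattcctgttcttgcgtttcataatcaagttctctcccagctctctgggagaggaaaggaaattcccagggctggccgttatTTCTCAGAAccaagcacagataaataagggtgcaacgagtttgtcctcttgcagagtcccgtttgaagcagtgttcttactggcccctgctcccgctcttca
Tgtp2: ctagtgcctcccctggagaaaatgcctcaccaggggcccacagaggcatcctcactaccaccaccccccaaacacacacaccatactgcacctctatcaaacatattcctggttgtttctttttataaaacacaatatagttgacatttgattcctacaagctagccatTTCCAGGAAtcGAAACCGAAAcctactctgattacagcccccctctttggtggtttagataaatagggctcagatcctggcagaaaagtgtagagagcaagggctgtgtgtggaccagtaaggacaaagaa
Irgm2: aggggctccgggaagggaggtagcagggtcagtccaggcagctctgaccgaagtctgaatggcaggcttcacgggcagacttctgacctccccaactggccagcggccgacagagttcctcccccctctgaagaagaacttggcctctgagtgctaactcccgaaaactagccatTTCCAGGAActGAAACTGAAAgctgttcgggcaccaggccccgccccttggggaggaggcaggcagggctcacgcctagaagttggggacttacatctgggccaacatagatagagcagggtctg
Ifi205: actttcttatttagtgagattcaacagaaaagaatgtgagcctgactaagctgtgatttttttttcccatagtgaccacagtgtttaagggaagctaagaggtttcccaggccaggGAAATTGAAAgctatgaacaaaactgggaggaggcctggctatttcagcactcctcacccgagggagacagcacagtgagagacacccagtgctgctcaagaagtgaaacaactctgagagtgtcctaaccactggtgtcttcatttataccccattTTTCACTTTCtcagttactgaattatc
In Tgtp2 and Irgm2 a gamma-activated site and an interferon element stood side by side, with the interferon element starting 70 bases before the start of Tgtp2 and 64 bases before that of Irgm2. In Cxcl10 the element started 213 bases before the start, and in Gbp5 165 bases before it. In Ifi205 1 element started 134 bases before the start, and the other lay after the start.

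Type I interferon response genes lay higher throughout the list. All 30 members were found and tested, 0 passed the adjusted threshold, and all 30 had a positive fold change with an unadjusted p under 0.05, beside 8.86% of all genes. DESeq2 called 22 of the 30, beside 1.89% of all genes. The median log2 fold change was 2.42 (range 0.68 to 3.75) beside -0.0011 over all genes. Irf7, the transcription factor that amplifies interferon production, measured 44.7, 22.4 and 136 CPM in TGFbi+RT, 16.5, 232 and 29.4 CPM in TGFbi+RT+anti-PD-L1, 5.13, 3.84 and 12.1 CPM in TGFbi and 18.4, 8.22 and 7.38 CPM in RT. Every combined tumor except TGFbi+RT+anti-PD-L1 replicate 1 lay above the highest single-agent tumor, RT replicate 1, and the fold change was 3.15 ± 0.73. Oas2 and Oas3, enzymes that sense double-stranded RNA and activate RNase L, had fold changes of 2.96 ± 0.67 and 3.75 ± 0.85. Oas3 was at 5.18 to 102 CPM (median 14.4) in combined tumors and 0.816 to 6.56 CPM (median 2.17) in single-agent tumors. Zbp1, a sensor of left-handed nucleic acid that can start inflammatory cell death (Entrez 58203, chromosome 2 from 173206612 to 173218922), measured 19.7, 13.9 and 145 CPM in TGFbi+RT, 11.9, 157 and 18.5 CPM in TGFbi+RT+anti-PD-L1, 2.79, 1.63 and 6.4 CPM in TGFbi and 11.1, 4.52 and 6.24 CPM in RT. The sides did not overlap, and the fold change was 3.57 ± 0.83. Summed over the list, the level was 519 to 4148 CPM (median 714) in combined tumors and 210.2 to 577 CPM (median 350.3) in single-agent tumors. Within library codes the median was 2.43 in A2301 and 2.69 in A2304. Without the 2 tumors that stood apart it was 1.00, with all 30 genes above zero and 21 at an unadjusted p under 0.05, beside 3.00% of all genes in that fit.

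A trio of interferon-inducible genes outside the lists, named because their gaps were among the widest, also separated the sides. Slfn1, of the schlafen family, measured 4.39, 4.88 and 28 CPM in TGFbi+RT, 4.91, 25.4 and 5.06 CPM in TGFbi+RT+anti-PD-L1, 1.26, 0.49 and 1.56 CPM in TGFbi and 2.35, 0.548 and 0.284 CPM in RT, and the fold change was 3.46 ± 0.74. Ms4a4c, a membrane protein of the MS4A family, was at 5.31 to 41.5 CPM (median 7.11) in combined tumors and 0.72 to 3.47 CPM (median 1.05) in single-agent tumors (fold change 3.51 ± 0.74). Ifi205, of the interferon-inducible family that binds DNA, was at 4.48 to 34.4 CPM (median 8.06) in combined tumors and 0.142 to 3.22 CPM (median 1.37) in single-agent tumors (fold change 3.03 ± 0.73). In each of these genes the lowest combined tumor exceeded the highest single-agent tumor, RT replicate 1, and without the 2 tumors the fold changes were 2.14, 2.05 and 2.10. Both Ifi205 and Ms4a4c have near-identical relatives, so how their reads were split is uncertain.

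**Figure D2:**
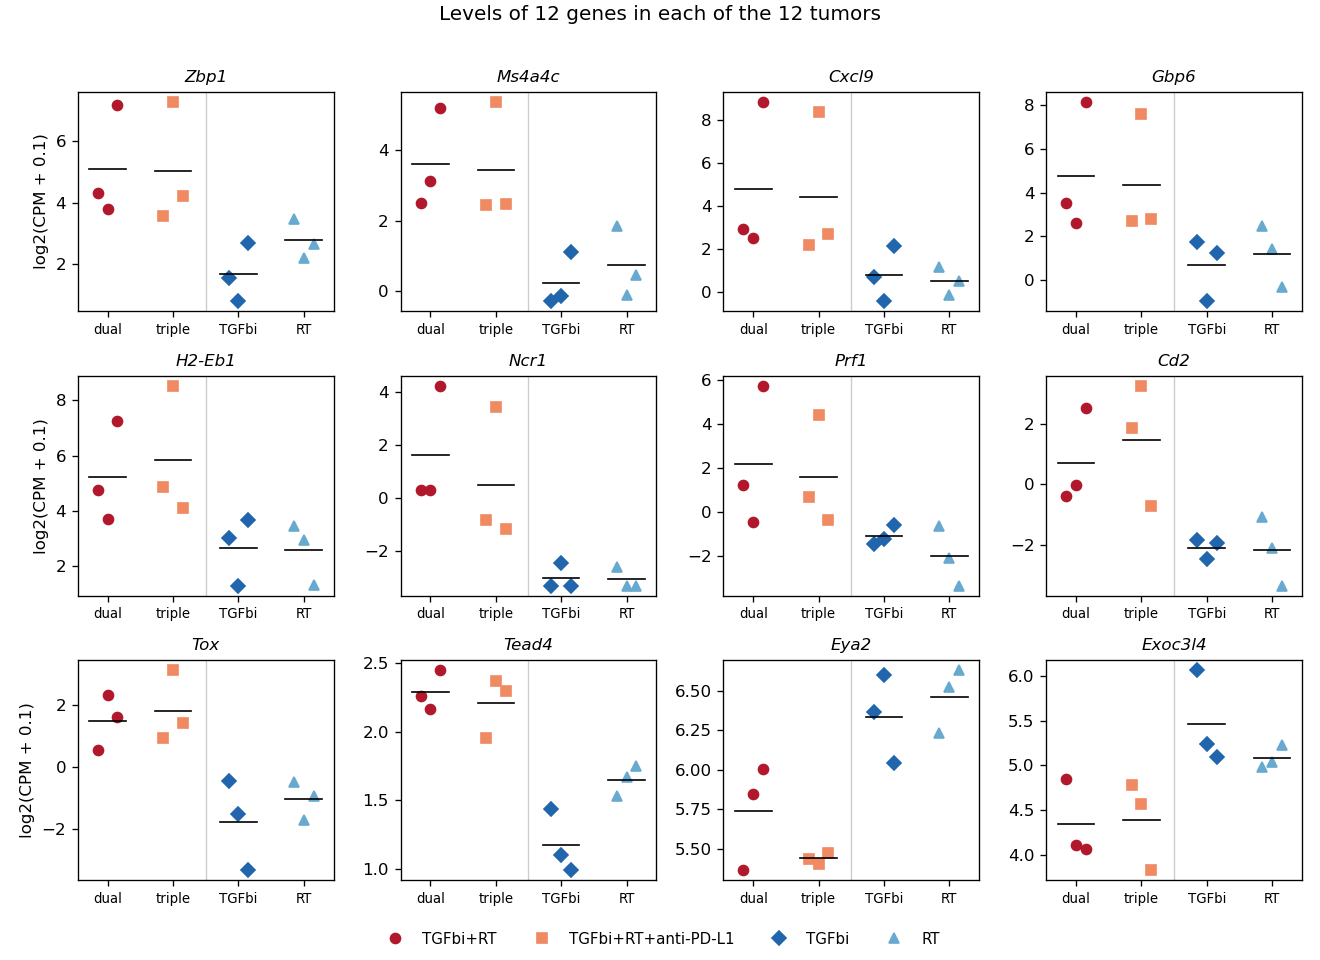
Levels of 12 genes as log2(CPM + 0.1) on each y axis, with 1 point per tumor and a bar at the group mean; dual is TGFbi+RT and triple is TGFbi+RT+anti-PD-L1. Except for Eya2 and Exoc3l4, in which all combined tumors lie below, every combined tumor lies above every single-agent tumor, and in all but Tox, Eya2 and Exoc3l4 the highest points are TGFbi+RT replicate 3 and TGFbi+RT+anti-PD-L1 replicate 2.

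Interferon gamma-induced GTPases and chemokines held the most non-overlapping genes of any list, 6 of 25 tested members (26 found) beside 0.352% of all genes. Of the 25, 24 had a higher level at an unadjusted p under 0.05, beside 8.86% of all genes. DESeq2 called 5, beside 1.89%, and the median log2 fold change was 3.32. DESeq2 gave no adjusted p for Cxcl9, Cxcl10, Gbp6, Iigp1 and Tgtp2, so it did not judge them. Cxcl9, a chemokine that draws in activated T cells through CXCR3 (Entrez 17329, chromosome 5 from 92321331 to 92328079), measured 7.6, 5.68 and 455 CPM in TGFbi+RT, 4.45, 324 and 6.33 CPM in TGFbi+RT+anti-PD-L1, 1.53, 0.653 and 4.35 CPM in TGFbi and 2.17, 0.822 and 1.35 CPM in RT. TGFbi+RT replicate 3 and TGFbi+RT+anti-PD-L1 replicate 2 were far above the rest, and the lowest combined value, 4.45 CPM, stood just above the highest single-agent value, 4.35 CPM in TGFbi replicate 3. The fold change was 6.20 ± 1.53, and 1.75 without those 2 tumors. Cxcl10, its neighbour with the same receptor, was at 3.54 to 204 CPM (median 5.92) in combined tumors and 1.72 to 2.94 CPM (median 2.57) in single-agent tumors (fold change 4.45 ± 1.18). Gbp6, a guanylate-binding protein that attacks intracellular pathogens, measured 11.4, 6.08 and 289 CPM in TGFbi+RT, 6.37, 192 and 6.83 CPM in TGFbi+RT+anti-PD-L1, 3.24, 0.408 and 2.21 CPM in TGFbi and 5.45, 2.6 and 0.71 CPM in RT, with a fold change of 5.12 ± 1.30. The immunity-related GTPase Iigp1 was at 11 to 624 CPM (median 21.4) in combined tumors and 2.12 to 11.1 CPM (median 5.72) in single-agent tumors, with TGFbi+RT+anti-PD-L1 replicate 1 just below RT replicate 1. Tgtp2, another such GTPase, was at 9.7 to 243 CPM (median 12.9) in combined tumors and 2.61 to 7.06 CPM (median 5.49) in single-agent tumors (fold change 3.99 ± 1.01). The non-overlapping members Gbp5 and Irgm2, picked after their values were seen, had fold changes of 4.77 ± 1.24 and 3.26 ± 0.87. Guanylate-binding and immunity-related GTPase genes lie in clusters of close copies, so their separate counts are uncertain. Within library codes the list's median was 3.03 in A2301 and 3.48 in A2304. Without the 2 tumors it was 0.87, with 24 of 25 members above zero. At an unadjusted p under 0.05 there were 11, beside 3.00% of all genes in that fit.

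Inflammatory chemokines as a whole had a median of 1.77 over 21 tested members of 26. At an unadjusted p under 0.05, 18 lay higher, beside 8.86% of all genes. Ccl22, a chemokine of dendritic cells that attracts CCR4-bearing T cells, measured 3.65, 2.32 and 28.8 CPM in TGFbi+RT, 9.36, 16.8 and 0.759 CPM in TGFbi+RT+anti-PD-L1, 1.53, 0.408 and 0.985 CPM in TGFbi and 0.743, 0.205 and 0.142 CPM in RT, and only TGFbi+RT+anti-PD-L1 replicate 3, at 0.759 CPM, lay inside the single-agent range of 0.142 to 1.53 CPM. Summed chemokine levels were 282 to 2072 CPM in combined tumors and 106.9 to 488 CPM in single-agent tumors. Without the 2 tumors the median was 0.93.

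The median of antigen presentation genes differed by class. Of 21 MHC class I presentation genes, all tested, 17 had a higher level at an unadjusted p under 0.05, beside 8.86% of all genes. Their median was 1.21. In 0 members did the sides not overlap, which beside 0.352% of all genes is not read as a result. Nlrc5, the transactivator of class I genes, measured 53.4, 89 and 254 CPM in TGFbi+RT, 54.6, 209.9 and 43.8 CPM in TGFbi+RT+anti-PD-L1, 47.4, 39.8 and 40.0 CPM in TGFbi and 41, 36.7 and 29.6 CPM in RT. TGFbi+RT+anti-PD-L1 replicate 3 lay inside the single-agent range, and the fold change was 1.58 ± 0.45. The nonclassical molecules H2-T23, a ligand of natural killer receptors, and H2-Q7 had fold changes of 2.06 ± 0.64 and 1.88 ± 0.52, with H2-T23 at 19.8 to 180.2 CPM (median 29.8) in combined tumors and 13.4 to 24.2 CPM (median 18) in single-agent tumors. Class I genes are close copies of each other, so their separate counts are uncertain. Without the 2 tumors the class I median was 0.26, with 18 of 21 genes above zero. At an unadjusted p under 0.05 there were 5, beside 3.00% of all genes in that fit.

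Class II genes, whose products show antigen to helper T cells, had a median of 3.37 over 9 tested members of 11. All 9 lay higher at an unadjusted p under 0.05, beside 8.86% of all genes. DESeq2 called 6, beside 1.89%. H2-Eb1, the beta chain of the I-E molecule, measured 27.2, 12.9 and 153 CPM in TGFbi+RT, 29.1, 366 and 17 CPM in TGFbi+RT+anti-PD-L1, 7.92, 2.37 and 12.7 CPM in TGFbi and 11, 7.53 and 2.41 CPM in RT. The lowest combined value, 12.9 CPM, lay just above the highest single-agent value, 12.7 CPM in TGFbi replicate 3, and the fold change was 3.68 ± 0.93. H2-DMb1, part of the complex that loads peptide on class II, was at 2.36 to 38.5 CPM (median 3.08) in combined tumors and 0.142 to 2.17 CPM (median 0.874) in single-agent tumors, with a fold change of 3.79 ± 0.98. Within library codes the class II median was 2.58 in A2301 and 4.18 in A2304. Without the 2 tumors it was 1.35. At an unadjusted p under 0.05 there were 8 of 9 genes, beside 3.00% of all genes in that fit.

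Markers of cytotoxic lymphocytes had the highest median of the 37 lists, 4.48, but the low-count filter kept 13 of 23 members. The median thus describes only genes with enough counts in some tumors. Members such as Ncr1 and Cd226 passed the filter through combined tumors alone and could only come out higher. The median and its rank are therefore partly set by the filter. The natural killer receptor Ncr1 (Entrez 17086, chromosome 7 from 4337724 to 4345164) measured 1.12, 1.12 and 18.7 CPM in TGFbi+RT, 0.465, 10.8 and 0.338 CPM in TGFbi+RT+anti-PD-L1, 0, 0.0816 and 0 CPM in TGFbi and 0.0619, 0 and 0 CPM in RT. It had 414 counts over the combined tumors and 2 over the single-agent tumors, a ratio of 210.4 per scaled library with an exact 95% counting interval of 57.9 to 1743.2, which covers counting error only. Every combined tumor held the transcript, and the lowest of them, TGFbi+RT+anti-PD-L1 replicate 3 at 0.338 CPM, lay above the highest single-agent tumor at 0.0816 CPM. Without the 2 high tumors the fitted fold change was 4.32 in place of 7.24, both of which depend on the prior count. Klrk1, the activating receptor NKG2D, was at 0.844 to 34.2 CPM (median 1.89) in combined tumors and 0.071 to 1.07 CPM (median 0.441) in single-agent tumors (fold change 4.60 ± 1.14), and TGFbi+RT+anti-PD-L1 replicate 3 lay inside the single-agent range. Cd226, an activating receptor of natural killer and T cells, was at 0.422 to 6.91 CPM (median 1.02) in combined tumors and 0.082 to 0.327 CPM (median 0.193) in single-agent tumors with no overlap (fold change 3.61 ± 0.82). Perforin, Prf1, picked after its values were seen, measured 2.23, 0.64 and 52.5 CPM in TGFbi+RT, 1.53, 21.1 and 0.675 CPM in TGFbi+RT+anti-PD-L1, 0.27, 0.327 and 0.574 CPM in TGFbi and 0.557, 0.137 and 0 CPM in RT. Its fold change was 5.25 ± 1.32, and the sides did not overlap.

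T cell markers had a median of 3.23 over 24 tested members. At an unadjusted p under 0.05, 20 lay higher, beside 8.86% of all genes, and DESeq2 called 13, beside 1.89%. Members such as Cd2 and Cd6, at most 0.372 and 0.557 CPM in single-agent tumors, passed the filter through combined tumors alone. They could only come out higher, so the median is partly set by the filter. Cd2, an adhesion receptor of T and natural killer cells, measured 0.67, 0.88 and 5.62 CPM in TGFbi+RT, 3.52, 9.3 and 0.506 CPM in TGFbi+RT+anti-PD-L1, 0.18, 0.0816 and 0.164 CPM in TGFbi and 0.372, 0.137 and 0 CPM in RT, with no overlap and a fold change of 4.29 ± 0.91. Cd6, a coreceptor of T cells, had a fold change of 4.49 ± 0.97, and Trac, the constant region of the T cell receptor alpha chain, of 3.25 ± 0.75. Trac was at 0.506 to 15 CPM (median 3.94) in combined tumors and 0.27 to 0.71 CPM (median 0.491) in single-agent tumors, and TGFbi+RT+anti-PD-L1 replicate 3 lay inside the single-agent range. The list's summed level hardly separated the sides, 267 to 501 CPM in combined tumors and 264 to 417 CPM in single-agent tumors, since members with counts in every tumor make up most of it. The mean of centred log2 CPM over the list, called the list score, was 1.92 in TGFbi+RT replicate 3, 1.96 in TGFbi+RT+anti-PD-L1 replicate 1 and 2.85 in TGFbi+RT+anti-PD-L1 replicate 2, and -1.01 in TGFbi+RT+anti-PD-L1 replicate 3. The single-agent scores ran from -1.25 to -0.18. Without the 2 tumors the filter kept 16 members, with a median of 1.14. At an unadjusted p under 0.05 there were 4, beside 3.00% of all genes in that fit. Within library codes the T cell median was 1.66 in A2301 and 2.40 in A2304, and the cytotoxic median 3.75 and 2.56. These medians cover other members than the pooled ones, since Ncr1, Prf1, Cd226, Cd2 and Cd6 were not tested within A2304. With the code as a term in a fit of all tumors, the T cell median was 3.54 and the cytotoxic median 4.54.

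Regulatory T cell and checkpoint genes had a median of 1.57 over 21 tested members of 22. At an unadjusted p under 0.05, 13 lay higher, beside 8.86% of all genes. The fit without the 2 tumors tested 19 members, with a median of 0.62 and 4 at that p, beside 3.00% of all genes. Without TGFbi+RT+anti-PD-L1 replicate 2 alone the median was 0.95. Tox, a nuclear factor of chronically stimulated T cells, had one of the widest gaps between the sides. It measured 1.34, 4.88 and 2.94 CPM in TGFbi+RT, 1.79, 8.48 and 2.53 CPM in TGFbi+RT+anti-PD-L1, 0.63, 0.245 and 0 CPM in TGFbi and 0.619, 0.205 and 0.426 CPM in RT, and the fold change was 3.35 ± 0.66 and 2.87 without the 2 tumors. In this gene the second highest tumor was TGFbi+RT replicate 2, not one of the 2 that stood apart. Tnfrsf4, the costimulatory receptor OX40, was at 1.1 to 8.96 CPM (median 3.13) in combined tumors and 0.639 to 1.89 CPM (median 0.937) in single-agent tumors (fold change 1.79 ± 0.46). Cd274, which encodes the ligand PD-L1, was measured at 11.2, 10.4 and 187 CPM in TGFbi+RT, 5.71, 123 and 9.79 CPM in TGFbi+RT+anti-PD-L1, 7.38, 2.94 and 5.66 CPM in TGFbi and 6.01, 2.47 and 2.41 CPM in RT. TGFbi+RT+anti-PD-L1 replicate 1 lay inside the single-agent range, the other 5 combined tumors lay above it, and the fold change was 3.68 ± 0.98, or 1.06 without the 2 tumors.

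B cell and plasma cell markers had a median of 1.59 over 12 tested members of 21. At an unadjusted p under 0.05, 4 lay higher, beside 8.86% of all genes. Ighm, the heavy chain of IgM, measured 6.63, 4.08 and 30.2 CPM in TGFbi+RT, 64.5, 50.5 and 7.42 CPM in TGFbi+RT+anti-PD-L1, 7.65, 1.47 and 5.5 CPM in TGFbi and 11.9, 3.56 and 1.92 CPM in RT, and TGFbi+RT+anti-PD-L1 replicate 1 was the highest tumor. The list's score was 2.65 in that tumor and -0.78 to 1.09 in the other combined tumors, against at most 0.43 in single-agent tumors. Without TGFbi+RT+anti-PD-L1 replicate 1 the median was 0.22, and without RT replicate 1 it was 2.42. Cd22, an inhibitory receptor of B cells, had a fold change of 2.42 ± 0.68.

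**Figure D3:**
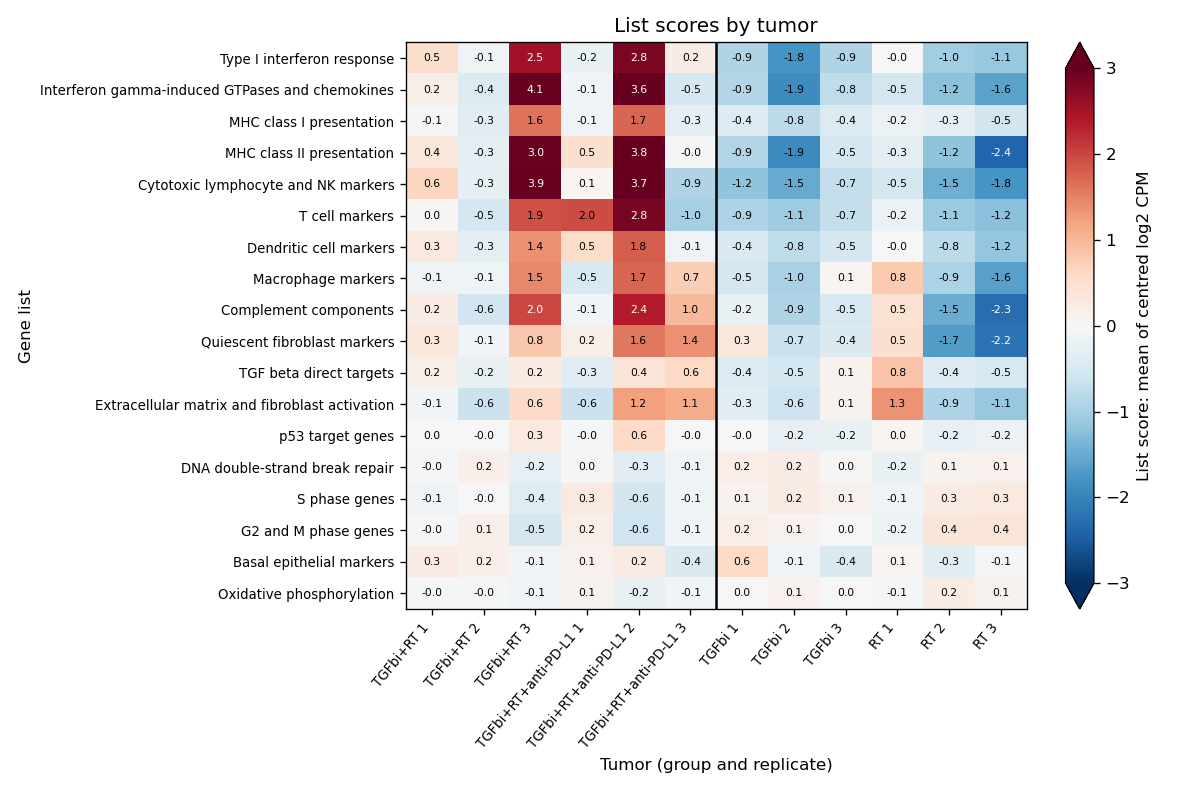
Scores of 18 gene lists (rows) in the 12 tumors (columns), each the mean over tested members of log2 CPM centred on the gene's mean over the 12 tumors; red is above that mean, blue below, and the black line parts combined tumors (left) from single-agent tumors (right). The interferon, MHC and cytotoxic rows are highest in TGFbi+RT replicate 3 and TGFbi+RT+anti-PD-L1 replicate 2, and the S phase and G2 and M phase rows are lowest there.

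Dendritic cell markers had a median of 1.79 over 20 tested members of 21. At an unadjusted p under 0.05, 13 lay higher, beside 8.86% of all genes. Without the 2 tumors the median was 0.69 with 5 such members, beside 3.00% of all genes. Without TGFbi+RT+anti-PD-L1 replicate 2 alone it was 1.17. Flt3, the growth factor receptor of dendritic cell precursors, was at 0.48 to 4.65 CPM (median 1.75) in combined tumors and 0.082 to 0.557 CPM (median 0.341) in single-agent tumors (fold change 2.39 ± 0.56), and Ccr7, the receptor that guides cells to lymph nodes, had a fold change of 2.15 ± 0.55. Macrophage markers had a median of 1.19 over 24 tested members of 25. At an unadjusted p under 0.05, 8 lay higher, beside 8.86% of all genes. Timd4, a receptor with which resident macrophages take up dying cells, had one of the smallest p-values of all genes. It measured 0.894, 1.6 and 3.98 CPM in TGFbi+RT, 7.1, 9.91 and 6.16 CPM in TGFbi+RT+anti-PD-L1, 0.45, 0.98 and 0.985 CPM in TGFbi and 0.433, 0 and 0.213 CPM in RT, with a fold change of 3.24 ± 0.55 and an unadjusted p of 0.000109. TGFbi+RT replicate 1, at 0.894 CPM, lay inside the single-agent range, and the TGFbi+RT+anti-PD-L1 tumors were all above the TGFbi+RT tumors. Fcgr1, a high-affinity antibody receptor, and C1qb, a chain of complement C1q, had fold changes of 2.32 ± 0.72 and 1.67 ± 0.60. C1qb overlapped widely, at 20.6 to 193 CPM (median 41.3) in combined tumors and 10.9 to 44.3 CPM (median 18.2) in single-agent tumors. Without the 2 tumors the macrophage median was 0.34, with 1 of 24 members at an unadjusted p under 0.05, close to the 3.00% of all genes in that fit.

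Over the monocyte and neutrophil markers the median was 1.41 for 19 tested members of 25. At an unadjusted p under 0.05, 11 lay higher, beside 8.86% of all genes. The median was 0.93 with 4 such members without the 2 tumors, beside 3.00% of all genes, and 2.36 without RT replicate 1. Ly6c2, a surface marker of inflammatory monocytes, measured 2.38, 4.8 and 16.8 CPM in TGFbi+RT, 2.39, 28.8 and 1.1 CPM in TGFbi+RT+anti-PD-L1, 0.0901, 0.245 and 0.985 CPM in TGFbi and 1.11, 0.343 and 0.639 CPM in RT, with a fold change of 4.03 ± 0.93, and TGFbi+RT+anti-PD-L1 replicate 3 and RT replicate 1 were nearly equal. Plac8 had a fold change of 2.87 ± 0.74. Complement genes had a median of 1.74 over 19 tested members of 20. At an unadjusted p under 0.05, 14 lay higher, beside 8.86% of all genes. Without the 2 tumors the median was 0.64 with 3 such members, beside 3.00% of all genes. Without TGFbi+RT replicate 3 alone it was 1.15. Complement factor Cfb, an enzyme of the alternative pathway, was at 21.8 to 293 CPM (median 48.2) in combined tumors and 8.94 to 24.5 CPM (median 17.2) in single-agent tumors (fold change 2.52 ± 0.62), and the central component C3 had a fold change of 3.24 ± 0.93. Mast cell, eosinophil and basophil markers had a median of 1.63 over 10 tested members of 19 (2.46 without RT replicate 1, 1.01 without TGFbi+RT replicate 3 and 0.96 within A2301). Cytosolic nucleic acid sensors had a median of 1.14 over 19 of 20. At an unadjusted p under 0.05, 12 lay higher, beside 8.86% of all genes. Without the 2 tumors the median was 0.39 with 3 such members, beside 3.00% of all genes. TGFbi+RT replicate 3 and TGFbi+RT+anti-PD-L1 replicate 2 had the highest macrophage scores, 1.45 and 1.74, as they had the highest type I interferon scores, 2.51 and 2.81. The match was not complete: TGFbi+RT+anti-PD-L1 replicate 1, with the T cell score of 1.96 and the B cell score of 2.65 given above, had a type I interferon score of -0.20, and RT replicate 1 had a macrophage score of 0.79. The part of leukocyte content in the interferon and MHC results was not tested.

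Of 26 direct TGF beta targets, all tested, 3 had a higher level at an unadjusted p under 0.05 beside 8.86% of all genes, and the median was 0.22 (0.54 without RT replicate 1 and 0.07 without the 2 tumors). The matrix protein Tgfbi, a secreted protein that TGF beta induces, measured 26.2, 35 and 70.5 CPM in TGFbi+RT, 27.7, 88.8 and 42.9 CPM in TGFbi+RT+anti-PD-L1, 16.8, 14.6 and 26.1 CPM in TGFbi and 51.2, 15.4 and 8.37 CPM in RT, with a fold change of 1.14 ± 0.46. Ccn1, a matrix-bound signaling protein, had 0.82 ± 0.33. Among 20 ligand and receptor genes, with a median of 0.06, 1 had a higher level at an unadjusted p under 0.05, beside 8.86% of all genes. The ligand Tgfb1 was at 41.8 to 117 CPM (median 71.3) in combined tumors and 36.6 to 79.8 CPM (median 50.5) in single-agent tumors (fold change 0.51 ± 0.30), and the receptor Tgfbr1, whose kinase the pathway depends on, had 0.41 ± 0.25. The 25 matrix and fibroblast activation genes had 0 members at an unadjusted p under 0.05, with a median of 0.46 that was -0.03 without the 2 tumors, 0.13 without TGFbi+RT replicate 3 and 1.14 without RT replicate 1. Fibronectin, Fn1, had 0.80 ± 0.41. BMP signaling genes, another branch of the TGF beta superfamily, had a median of 0.10 over 18 tested members of 21.

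Quiescent fibroblast markers stood apart from the activation genes, with a median of 1.03 over 18 tested members. At an unadjusted p under 0.05, 7 lay higher, beside 8.86% of all genes. Dpp4, a surface protease of fibroblast progenitors that T cells also carry, measured 4.47, 5.84 and 6.14 CPM in TGFbi+RT, 6.7, 11.2 and 19.1 CPM in TGFbi+RT+anti-PD-L1, 5.04, 2.37 and 2.62 CPM in TGFbi and 2.48, 0.685 and 0.142 CPM in RT, with a fold change of 2.09 ± 0.51. RT replicates 2 and 3 were the lowest and TGFbi+RT+anti-PD-L1 replicate 3 the highest. Efemp1, a secreted fibulin, had 2.81 ± 0.80. The list's median was 0.55 within library code A2301 and 2.02 within A2304, 0.78 without the 2 tumors and 1.67 without RT replicate 1. Adipocyte markers had a median of 1.25 over 16 tested members of 18, with 1 higher at an unadjusted p under 0.05 beside 8.86% of all genes. The 1 was Lpl, the lipase of fat cells and macrophages, at 1.96 ± 0.80. The adipocyte median was 0.43 without the 2 tumors, 0.58 without TGFbi+RT replicate 3, 1.98 without TGFbi replicate 1 and 2.34 without RT replicate 1. Endothelial markers had a median of 0.10, with 0 of 20 tested members at an unadjusted p under 0.05. Pericyte markers had a median of -0.01, with 3 of 15 higher and 0 lower at that p. Over all genes 8.86% lay higher and 3.99% lower.

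Proliferation genes lay slightly lower across whole lists. All 24 S phase genes had a negative fold change, with a median of -0.29 and 6 at an unadjusted p under 0.05 beside 3.99% of all genes, and all 24 G2 and M phase genes did, with a median of -0.28 and 4 at that p. Rrm2, a subunit of the enzyme that makes deoxynucleotides, measured 93.3, 90.4 and 73.1 CPM in TGFbi+RT, 122, 70.9 and 80.5 CPM in TGFbi+RT+anti-PD-L1, 120.2, 132 and 116 CPM in TGFbi and 91.3, 115 and 146 CPM in RT. The sides overlapped, and the fold change was -0.44 ± 0.16. The flap endonuclease Fen1 had -0.40 ± 0.13, the mitotic kinase Aurkb -0.41 ± 0.16 and the proliferation antigen Mki67 -0.37 ± 0.15. The S phase score was lowest in TGFbi+RT+anti-PD-L1 replicate 2 at -0.56 and TGFbi+RT replicate 3 at -0.37, the tumors with the highest interferon scores, and 0.26 in TGFbi+RT+anti-PD-L1 replicate 1. Without those 2 tumors the medians were -0.15 and -0.09, with 0 members of either list at an unadjusted p under 0.05. The part of leukocyte content in these differences was not tested. Oxidative phosphorylation genes had a median of -0.17, and mitochondrially encoded transcripts one of -0.07.

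DNA double-strand break repair genes had a median of -0.18 with 3 of 25 lower at an unadjusted p under 0.05, beside 3.99% of all genes, and -0.06 with 0 of 25 without the 2 tumors. The 3 included Brca2, a protein of homologous recombination, at 32.6 to 59.3 CPM (median 48.5) in combined tumors and 48.9 to 85.3 CPM (median 59.3) in single-agent tumors (fold change -0.40 ± 0.15), and DNA ligase Lig1 (-0.37 ± 0.13). The 25 p53 target genes had a median of 0.07 in these Trp53 null tumors, and 5 were higher at an unadjusted p under 0.05, beside 8.86% of all genes. Without the 2 tumors their median was -0.02, with 1 of 25 higher at that p, beside 3.00% of all genes in that fit. Cdkn1a, the cell cycle inhibitor p21, measured 30.1, 41.2 and 96.4 CPM in TGFbi+RT, 21.7, 125 and 40.3 CPM in TGFbi+RT+anti-PD-L1, 35.8, 16.3 and 21.2 CPM in TGFbi and 34.7, 15 and 15.2 CPM in RT, with a fold change of 1.36 ± 0.47. The death receptors Eda2r and Fas had 2.26 ± 0.63 and 1.82 ± 0.59. All 3 genes were highest in the 2 tumors that stood apart, and without these tumors their fold changes were 0.54, 1.06 and 0.77. Immediate early genes had a median of 0.68, with 9 of 19 higher at an unadjusted p under 0.05, beside 8.86% of all genes. Without the 2 tumors the median was 0.29 with 2 of 19 at that p, beside 3.00% of all genes. Without TGFbi+RT+anti-PD-L1 replicate 2 alone it was 0.34. Jun, a subunit of the transcription factor AP-1, was at 33.2 to 74 CPM (median 45.6) in combined tumors and 12.7 to 37.2 CPM (median 25) in single-agent tumors (fold change 0.99 ± 0.23), and Atf3, a stress-induced factor, had 1.62 ± 0.47.

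Hypoxia and glycolysis genes had a median of -0.01, and beside 8.86% of all genes 1 of 25 was higher at an unadjusted p under 0.05. This was Car9, a carbonic anhydrase induced by low oxygen, which measured 7.08, 10.1 and 5.7 CPM in TGFbi+RT, 1.59, 2.6 and 4.39 CPM in TGFbi+RT+anti-PD-L1, 3.15, 3.59 and 2.54 CPM in TGFbi and 2.35, 1.1 and 1.14 CPM in RT, with a fold change of 1.09 ± 0.30. Its level in the TGFbi+RT tumors was above that in every TGFbi+RT+anti-PD-L1 tumor. Basal epithelial markers had a median of -0.19 and luminal markers one of 0.33. Of the 20 basal markers 5 lay higher and 3 lower at an unadjusted p under 0.05, beside 8.86% and 3.99% of all genes. Without the 2 tumors these were 2 and 1, beside 3.00% and 1.84% of all genes in that fit. Myh11, a smooth muscle myosin of contractile cells, had 1.56 ± 0.58, while Col17a1, a collagen of the junction with the basement membrane, had -0.51 ± 0.12 and the lineage factor Sox10 -0.45 ± 0.15. Epithelial-mesenchymal transition genes had a median of 0.25 with 2 of 21 higher at an unadjusted p under 0.05, close to the 8.86% of all genes. Among tissues that may be cut with a tumor, skin keratinocyte markers had a median of -0.35 (9 of 15 tested) and erythrocyte markers one of -0.25 (7 of 9). Skeletal muscle markers had a median of 0.10 over 7 tested members of 16, but their summed level did not overlap, at 23.1 to 38.4 CPM in combined tumors and 13.8 to 19.2 CPM in single-agent tumors. Of the 7, Ttn and Neb, giant proteins of the sarcomere, lay higher at an unadjusted p under 0.05 and by DESeq2. They made up most of the summed level and so of its difference. In combined tumors their medians were 12.8 and 7.81 CPM beside 26.5 CPM for the sum, and in single-agent tumors 6.17 and 3.55 beside 16.1 CPM. Myh1 and Myh4 had 0 counts in all single-agent tumors.

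**Figure D4:**
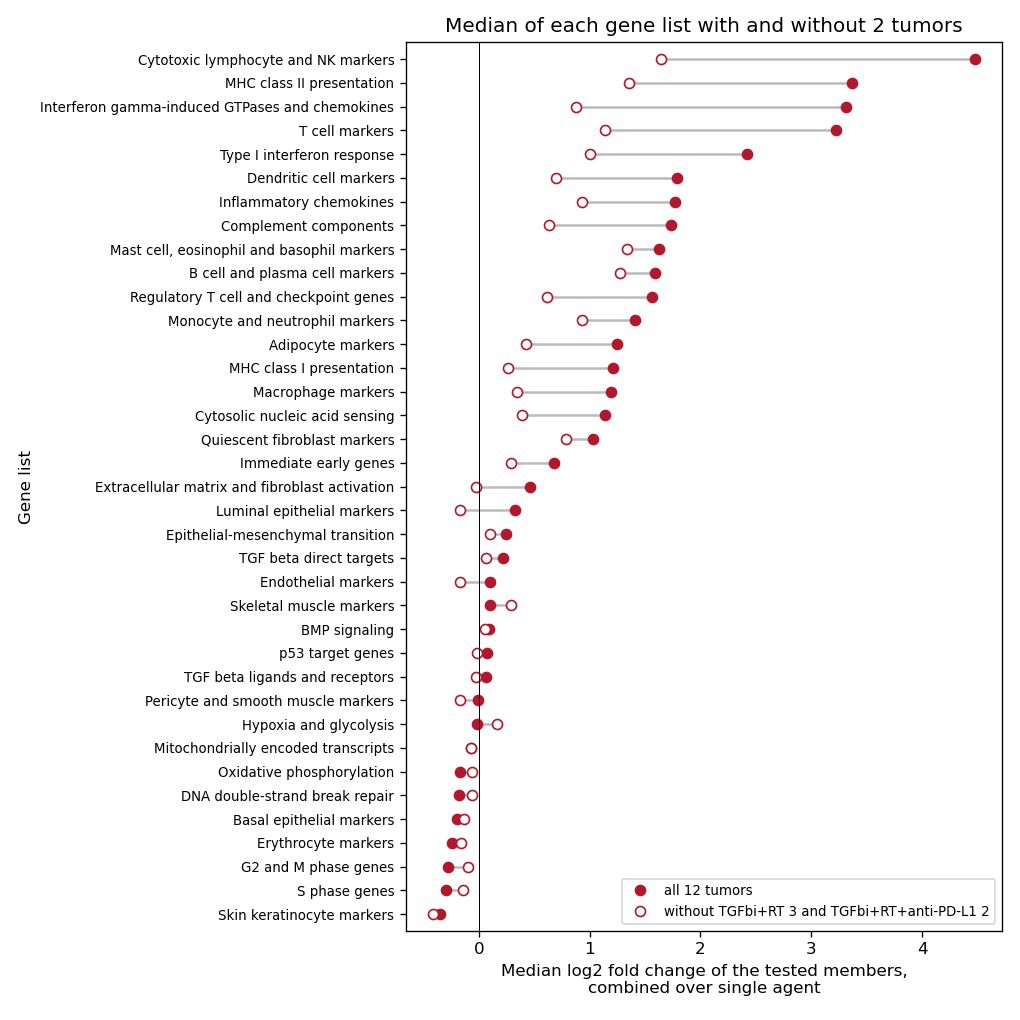
Median log2 fold change of the tested members of each of the 37 lists (rows), combined over single agent, with all 12 tumors (filled) and without TGFbi+RT replicate 3 and TGFbi+RT+anti-PD-L1 replicate 2 (open). The cytotoxic list is at 4.48 with all tumors and 1.64 without the pair, the type I interferon list at 2.42 and 1.00, and every list with a median above 0.5 stays above zero.

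Some of the smallest p-values belonged to genes outside the immune lists, with little dependence on the 2 tumors. Slc7a11, the cystine importer that feeds glutathione synthesis (Entrez 26570, chromosome 3 from 50364936 to 50443613), measured 28.4, 18.2 and 17.4 CPM in TGFbi+RT, 12.6, 16 and 11.8 CPM in TGFbi+RT+anti-PD-L1, 12.7, 11 and 8.53 CPM in TGFbi and 5.45, 6.03 and 5.04 CPM in RT. Its fold change was 1.14 ± 0.17, the smallest unadjusted p of the comparison at 3.66e-05, and 1.14 without the 2 tumors. TGFbi+RT+anti-PD-L1 replicates 1 and 3 and TGFbi replicate 1 were nearly equal, so the sides overlapped. Tead4, a DNA-binding partner of the Hippo pathway coactivators YAP and TAZ (Entrez 21679, chromosome 6 from 128227143 to 128300813), measured 4.69, 4.4 and 5.36 CPM in TGFbi+RT, 3.78, 5.06 and 4.81 CPM in TGFbi+RT+anti-PD-L1, 2.61, 2.04 and 1.89 CPM in TGFbi and 2.79, 3.08 and 3.26 CPM in RT. The sides did not overlap, the fold change was 0.86 ± 0.17, and it was 0.78 without the 2 tumors. Ttn, the muscle protein titin, was at 7.26 to 16.6 CPM (median 12.8) in combined tumors and 4.65 to 6.57 CPM (median 6.17) in single-agent tumors (fold change 1.07 ± 0.21). The part of muscle content was not tested, and the summed muscle markers given above include Ttn itself. Cep295nl was at 1.99 to 3.89 CPM (median 2.95) in combined tumors and 0.852 to 1.71 CPM (median 1.32) in single-agent tumors (fold change 1.19 ± 0.25). The sides did not overlap in Ttn or in Cep295nl.

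Among lower genes Eya2, a coactivator and phosphatase that works with homeodomain transcription factors (Entrez 14049, chromosome 2 from 165655298 to 165771631), measured 41.1, 57.4 and 64 CPM in TGFbi+RT, 43.2, 42.2 and 44.4 CPM in TGFbi+RT+anti-PD-L1, 82.4, 96.7 and 65.9 CPM in TGFbi and 74.9, 92 and 98.8 CPM in RT. The highest combined tumor, TGFbi+RT replicate 3, lay just below the lowest single-agent tumor, TGFbi replicate 3, and the fold change was -0.81 ± 0.13 with an unadjusted p of 9.40e-05. It was -0.87 without the 2 tumors. Exoc3l4 (Entrez 74190, chromosome 12 from 111417430 to 111431183) measured 28.7, 17.1 and 16.6 CPM in TGFbi+RT, 27.4, 23.5 and 14.1 CPM in TGFbi+RT+anti-PD-L1, 66.9, 37.7 and 34 CPM in TGFbi and 31.6, 32.7 and 37.5 CPM in RT, with no overlap and a fold change of -0.90 ± 0.23. Mvb12b, a subunit of the ESCRT-I complex that sorts membrane proteins for degradation, was at 68.2 to 115 CPM (median 97.4) in combined tumors and 127 to 187 CPM (median 146) in single-agent tumors (fold change -0.66 ± 0.16). The other lower genes with the widest gaps differed by less. The complex I subunit Ndufb11 was at 29.2 to 44.3 CPM (median 37.3) in combined tumors and 47.1 to 50.4 CPM (median 49.2) in single-agent tumors, the isomerase Fkbp2 of the endoplasmic reticulum at 7.93 to 9.82 CPM (median 8.88) in combined tumors and 11.3 to 12 CPM (median 11.5) in single-agent tumors, the mitochondrial ribosome protein Mrpl48 at 8.3 to 9.09 CPM (median 8.91) in combined tumors and 9.96 to 13.6 CPM (median 11.1) in single-agent tumors and the RNA decay factor Smg9 at 17.3 to 20.0 CPM (median 17.6) in combined tumors and 21.5 to 27.5 CPM (median 22.3) in single-agent tumors. Vwa2 and Ermp1 had fold changes of -0.63 ± 0.15 and -0.47 ± 0.12, with some overlap. Of the 34 lower genes DESeq2 called 6, beside 0.138% of all genes, and of the 56 higher genes 35, beside 1.89%. Both sets were picked from the same counts, so these calls are not separate evidence. Some of the higher genes, such as Cxcl9 and Ncr1, had no adjusted p from DESeq2.

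Set against each agent alone, the same combined tumors gave 0 called genes in both cases by edgeR (0%), with smallest adjusted p-values of 0.0803 against TGFbi and 0.238 against RT. At an unadjusted p under 0.05 there were 1623 genes against TGFbi and 1463 against RT. DESeq2 called 98 genes higher (0.617%) and 22 lower (0.138%) against TGFbi, and 39 higher (0.245%) and 10 lower (0.0629%) against RT, while limma-voom called 0. Both comparisons share the 6 combined tumors, so their values are given side by side. Type I interferon genes had medians of 2.70 against TGFbi and 2.17 against RT. For interferon gamma GTPases these were 3.40 and 3.31, for class II genes 3.26 and 3.48, for T cell markers 3.38 and 2.98, and for cytotoxic markers 4.12 and 4.19. Adipocyte markers had 0.41 against TGFbi and 1.75 against RT, direct TGF beta targets 0.43 and 0.00, and matrix genes 0.71 and 0.11. In Timd4 the fold changes were 2.32 ± 0.67 against TGFbi and 4.16 ± 0.78 against RT, and in Dpp4 1.30 ± 0.63 and 2.87 ± 0.69.

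**Figure D5:**
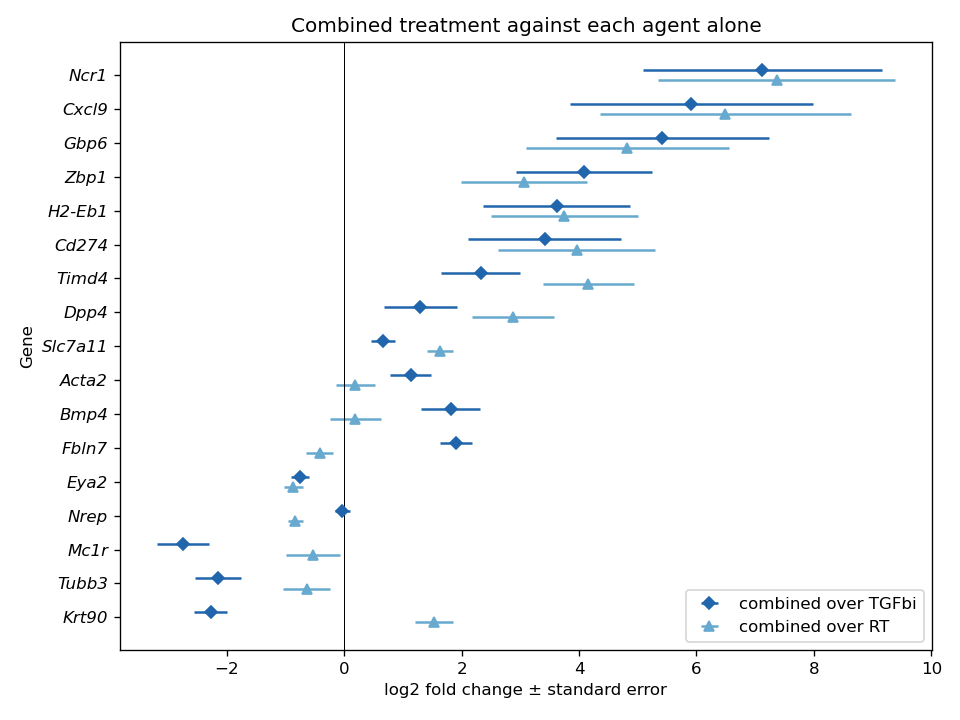
Fold changes (log2, ± standard error) of 17 genes in the combined tumors over the TGFbi tumors (dark diamonds) and over the RT tumors (light triangles). Immune genes lie to the right of zero in both, while Fbln7, Acta2, Bmp4, Nrep and Krt90 have unlike values over the 2 agents, Krt90 with -2.28 over TGFbi and 1.52 over RT.

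For some genes the values against the 2 agents were unlike, and the difference between the agents itself was not tested. All TGFbi tumors were placed under library code A2301, replicate 3 without a code in its column name. All RT tumors carry A2304, so agent and code cannot be told apart in these values. Fbln7, a secreted fibulin, measured 15.2, 12.5 and 9.77 CPM in TGFbi+RT, 14.9, 25 and 12.1 CPM in TGFbi+RT+anti-PD-L1, 3.78, 3.27 and 4.76 CPM in TGFbi and 22, 20.0 and 17.2 CPM in RT. The combined tumors lay above every TGFbi tumor (1.90 ± 0.27) and overlapped the RT tumors (-0.42 ± 0.24). Acta2, the actin of contractile cells, had 1.13 ± 0.34 against TGFbi and 0.19 ± 0.33 against RT, and the ligand Bmp4 had 1.81 ± 0.50 and 0.18 ± 0.44. Nrep had -0.04 ± 0.12 and -0.83 ± 0.12. Mc1r, the melanocortin receptor, and its neighbour Tubb3, a beta tubulin, were higher in TGFbi tumors than in all others. Mc1r measured 4.99, 3.12 and 2.16 CPM in TGFbi+RT, 2.52, 1.44 and 0.844 CPM in TGFbi+RT+anti-PD-L1, 27.8, 9.39 and 10.5 CPM in TGFbi and 2.6, 2.47 and 5.18 CPM in RT, with fold changes of -2.75 ± 0.45 and -0.53 ± 0.46. The genes are neighbours on one strand of chromosome 8, Mc1r from 123407082 to 123410744 and Tubb3 from 123411564 to 123422010, so reads that run from one into the other cannot be assigned with certainty. Combined tumors lay between the agents with no overlap on either side in 3 genes (0.0189%), Krt90, Tdrd3 and Ndp, all picked after their values were seen. Krt90, a type II keratin (Entrez 239673, chromosome 15 from 101552356 to 101562950), measured 2.76, 2.08 and 2.94 CPM in TGFbi+RT, 1.66, 1.64 and 1.01 CPM in TGFbi+RT+anti-PD-L1, 13.2, 6.94 and 8.2 CPM in TGFbi and 0.743, 0.479 and 0.78 CPM in RT. The fold changes were -2.28 ± 0.27 against TGFbi, with an edgeR adjusted p of 0.0803, and 1.52 ± 0.32 against RT. Tdrd3 lay on the same sides as Krt90, and Ndp lay above TGFbi and below RT.

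Within the combined side, TGFbi+RT+anti-PD-L1 against TGFbi+RT gave 0 called genes by edgeR (0%) and limma-voom, with 330 genes under an unadjusted 0.05; the smallest adjusted p was 1.00. DESeq2 called 0 higher and 2 lower (0.0126%). The median difference was 0.17 in type I interferon genes, -0.54 in interferon gamma GTPases, 1.00 in T cell markers and 1.82 in B cell markers. In Cd274 the difference was -0.59 ± 1.23, in Timd4 1.84 ± 0.68, in Slc7a11 -0.66 ± 0.24 and in Car9 -1.42 ± 0.43. A p that misses the threshold does not show that these groups were alike.

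Leaving out TGFbi+RT replicate 3 and TGFbi+RT+anti-PD-L1 replicate 2 left 4 combined tumors against 6, and edgeR called 0 genes (smallest adjusted p 0.874). At an unadjusted p under 0.05 there were 477 higher (3.00%) and 293 lower (1.84%). These made 770 of 15912 genes tested, fewer than the 795 expected by chance among the 15894 genes of the main fit. The excess over chance seen with all tumors, 2043 genes, was thus absent over all genes in this fit, which also held fewer tumors. Within library code A2301 edgeR called 0 genes and 906 had an unadjusted p under 0.05, and within A2304 these were 0 and 1670. For single genes the code values lay near the pooled ones in Zbp1, at 3.72 and 3.58, and in Gbp6, at 5.32 and 5.06. They lay apart in Timd4, at 2.07 and 5.13, and in Dpp4, at 0.80 and 3.74. Eya2 had -0.66 and -1.03, Tead4 1.07 and 0.69, and Slc7a11 0.84 and 1.33.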

How the data were processed

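Bulk RNA was sequenced from 16 libraries after ribosomal RNA depletion, and the 12 libraries of treated tumors were used; 3 Sham tumors and an internal reference were left out. The deposited values are raw read counts per Entrez gene made by the authors, one table for the series, with Subread named per the file headers and the build GRCm38 per the submitters' processing notes. The counter's settings, its strand setting and the annotation release are not given in the sources used here. The table held 27179 identifiers, of which 25275 matched a symbol.

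Counts were filtered with filterByExpr, scaled by TMM and fitted in edgeR 4.0.16 (R 4.3.3) with a quasi-likelihood model of 4 group means, with no covariate; the common biological coefficient of variation was 0.362 on 8 residual degrees of freedom. The combined side is the mean of 2 groups and so is the single-agent side. Benjamini-Hochberg adjustment ran over all 15894 genes tested, at a threshold of 0.05. Fitted fold changes used edgeR's default prior count. A prior count of 2 entered only the log2 CPM behind list scores, gaps and principal components. CPM were computed here. Overlap was judged on the CPM of 6 against 6 tumors. The alternatives were DESeq2 1.42.0, limma 3.58.1 with voom, median-of-ratios scaling, no filter, all 15 tumors in the fit, a replicate block, each tumor left out, the resubmitted libraries left out, and fits by library code. The fit was tested on simulated data. Promoter windows were read from RefSeq with Python 3.11.15.

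The comparison and the 37 gene lists (783 of 785 entries found) were chosen with earlier results of these data known. The text names up to 8 genes a direction by p and up to 6 by gap, at an average log2 CPM of at least 1, up to 3 per list by p, and Trp53, Tgfbr1, Tgfb1, Cd274 and Cdkn1a; any other gene is said to be picked later, except the epithelial keratins used to check the tissue. Library depth and 3 tumors a group limit the precision, and counting intervals cover counting error only.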

Additional observations from a re-analysis of the deposited data

Results flagged for a closer look

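Of 242 sets of 6 values examined, 8 held a tumor far from the other 5, where chance gives about 1 in 20 sets; the figure for each is the gap to the nearest tumor over the whole range, read against Dixon's critical value. In Nrep the lowest combined tumor was TGFbi+RT replicate 3, at 0.683. In Smg9 the highest combined tumor was TGFbi+RT replicate 1, at 0.673, and the highest single-agent tumor TGFbi replicate 2, at 0.796. In Exoc3l4 the highest single-agent tumor was TGFbi replicate 1, at 0.764, and in Cxcl10 the lowest was TGFbi replicate 3, at 0.626. The skeletal muscle score was highest in TGFbi+RT replicate 1 on the combined side, at 0.687, and in TGFbi replicate 3 on the single-agent side, at 0.676. The pericyte and smooth muscle score was highest in RT replicate 1 among single-agent tumors, at 0.654.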

How the results depend on the processing

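No gene passed edgeR's threshold in any of the 4 comparisons under the alternatives run, including each tumor left out in turn (0 to 0). DESeq2 was the exception, with 322 genes for combined over single agent, 120 against TGFbi, 49 against RT and 2 for TGFbi+RT+anti-PD-L1 over TGFbi+RT. Genes without overlap numbered 90, and 98 to 370 with 1 tumor left out: 370 without RT replicate 1, 273 without TGFbi+RT+anti-PD-L1 replicate 1, 199 without TGFbi replicate 1, 198 without TGFbi+RT+anti-PD-L1 replicate 3, 177 without TGFbi+RT replicate 2 and 139 without TGFbi replicate 3. Without the resubmitted libraries (TGFbi+RT replicate 3 and TGFbi replicate 3) it was 148, with 79 higher and 69 lower. Fewer tumors then have to separate. Lists with a median at least 0.5 above that of all genes numbered 18, and 13 without the 2 tumors that stood apart. None of the 18 changed sign over 24 settings, while 11 of the other 19 did in some setting. The 18 were picked for large medians in these same tumors, so a kept sign was likely beforehand. Over 84 named genes, 1956 of 2010 values kept direction and side of the threshold, 52 passed it by DESeq2, and 2 reversed, both within library code A2304: Fbln7 at -0.0933 and Krt90 at 0.98. Genes without an adjusted p from DESeq2, such as Cxcl9 and Ncr1, were counted there as keeping their side, though DESeq2 did not judge them. The replicate block gave 0 calls. Replicate numbers did not pair the tumors: same-numbered tumors correlated at -0.583 to 0.324, and 2 of 12 tumors correlated best with their own number. The low-count filter kept 13 of 23 cytotoxic, 10 of 19 mast cell and 7 of 16 skeletal muscle markers in the test. In any list, members kept through combined tumors alone could only come out higher.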
